A study of Mus musculus with 4 samples.

Results

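Skeletal muscle contractile and myogenic genes were followed in RNA of fetal mouse brain. The set holds 44 genes: 27 of the sarcomere, 7 of calcium handling and the muscle membrane, 3 subunits of the muscle acetylcholine receptor, 4 of muscle metabolism and 3 myogenic transcription factors. All 44 were found on the array by the gene name in the array file, with 77 of its 41174 probes and among its 28146 gene names. They were chosen by name with earlier results of the same arrays known, and the ratios and levels described here are the values in view at that choice, so they describe the genes and test nothing.

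The brains came from C57BL/6J fetuses of 3 kinds of dams. In food deprivation (FD) the dams had no food overnight on gestation day 17. In food restriction (FR) chow was held to 50% of the control amount on gestation days 10 to 17, with caesarean section on day 18. For FD no day of section is stated. Control dams ate freely. RNA of 5 fetuses was pooled per group, and each treated pool shared 2 arrays with a control pool, its RNA in Cy5 on array 1 and in Cy3 on array 2. The sources used here do not say whether FD and FR had the same control RNA, how many litters the fetuses came from, or the sex of the fetuses. The control RNA on the FD arrays and that on the FR arrays are treated as separate control pools. With 1 pool per condition, no difference could be tested: what the diet did and how pools vary cannot be told apart.

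Skeletal muscle shortens when myosin filaments pull on actin filaments. Calcium released by the ryanodine receptor binds troponin C, which moves troponin I, troponin T and tropomyosin and lets myosin reach actin. Fast and slow fibres build the same sarcomere from different genes for myosin, troponin and the calcium pump, and fetal fibres also use embryonic and perinatal myosins. Myod1, Myf5 and Myog encode the transcription factors that commit cells to muscle and drive their differentiation. Skeletal sarcomeres belong to muscle fibres and are not a feature of brain cells.

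Each array held 43379 spots other than controls, of which 71.4% to 85.3% per channel were well above background by the scanner's flag. Of 10 listed neuron markers, 5 were measured on all 4 arrays by the rule that follows, and these were bright. Their mean log2 channel level was 11.82 for FD, 11.93 for its control pool, 11.73 for FR and 11.91 for the FR control pool. Measured probes are those well above background in both channels of both arrays of a comparison, and each gene is given by its brightest such probe. The size rule asks for a difference of at least 1.5-fold in 1 direction on both arrays. The SD of a dye-swap mean over all measured genes was 0.127 log2 units for FD and 0.131 for FR, which covers technical error only.

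In the FD pool, 6 of 9 fast and 2 of 4 embryonic sarcomere genes were lower than in the control pool by the size rule. Of 36 measured members 11 passed as lower and 0 as higher, where 0.128% of 17964 measured genes passed as lower and 0.0891% as higher. The 11 were Myl1, Tnnc2, Tnni2, Mylpf, Sln, Myl3, Acta1, Myh3, Myh8, Myh4 and Tnnt3, and they made up 11 of the 23 genes that passed as lower on the whole array. The median log2 ratio of FD over control was -0.29 for the 36 members (-0.37 and -0.28 on arrays 1 and 2) and 0.00 for all measured genes. Both arrays were negative for 28 of the 36 members and for 4187 of the 17964 genes. A ratio alone does not tell a lower FD pool from a higher control pool, and levels in each pool are given below. In a tissue sample, a difference in the number of muscle cells and one in RNA per muscle cell cannot be told apart.

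**Figure D1:**
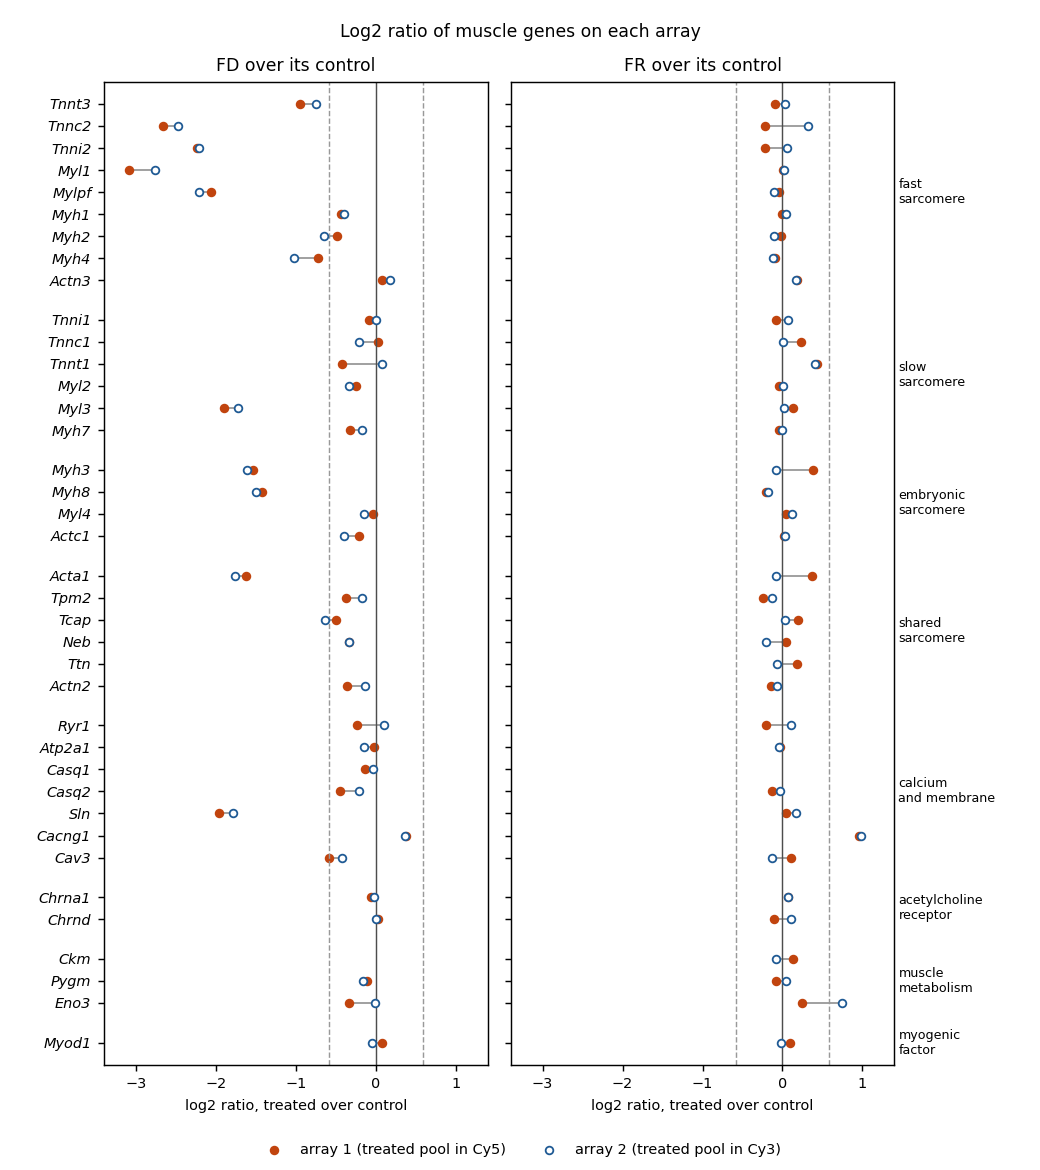
Log2 ratio of treated over control RNA (x axis) for the members measured in at least 1 comparison (rows, by function), with FD on the left and FR on the right. Filled and open points are arrays 1 and 2, and dashed lines mark 1.5-fold. FD points reach -3.08 (Myl1), while FR means lie between -0.20 and 0.50 apart from Cacng1 at 0.97.

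The fast sarcomere group had 6 of 9 members passing as lower, with a median log2 ratio of -0.87. Myl1, the essential light chain of fast myosin, had log2 channel levels of 7.68 and 7.85 in the FD pool on arrays 1 and 2, against 10.76 and 10.62 in its control pool. Myl1 was 7.60-fold lower in FD (log2 ratio -3.08 and -2.77), the lowest of all members, and the pools did not overlap. Here and below, overlap concerns repeat readings of the same RNA and does not show how pools vary. The share of all genes without overlap is not given. A second Myl1 probe, well above background in the FD pool on 1 of 2 arrays, gave -0.71 and -0.63. Tnnc2, the calcium sensor of fast troponin, had levels of 8.29 and 8.40 in the FD pool, against 10.95 and 10.87 in the control pool. It was 5.91-fold lower in FD (-2.66 and -2.47). Tnni2, the inhibitory subunit of the same complex, had levels of 8.15 and 8.10 in the FD pool and of 10.38 and 10.32 in the control pool, and was 4.68-fold lower in FD (-2.24 and -2.22). The troponin T subunit of fast fibres, Tnnt3, binds the complex to tropomyosin. Its levels were 6.82 and 7.09 in the FD pool, against 7.76 and 7.84 in the control pool, and it was 1.80-fold lower in FD (-0.95 and -0.75).

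Mylpf, the regulatory light chain of fast myosin, had levels of 7.17 and 7.38 in the FD pool, against 9.23 and 9.59 in the control pool. It was 4.39-fold lower in FD (-2.06 and -2.21), with no overlap between the pools. The adult fast heavy chains were closer to 0: Myh4, the heavy chain of the fastest fibres, had levels of 6.87 and 6.83 in the FD pool, against 7.60 and 7.85 in the control pool, and was 1.83-fold lower in FD (-0.73 and -1.02). Myh2 at -0.48 and -0.65 and Myh1 at -0.44 and -0.39 did not pass. The probes of Myh1, Myh2 and Myh4 were dim, with mean levels of 7.25 to 7.89 in the control pool. The part of dimness in their smaller ratios was not tested. Actn3, the alpha-actinin of fast fibres, lay at 0.08 and 0.17.

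The probes behind the largest of these ratios are short stretches of DNA, 60 bases long, that capture labelled RNA. They are shown to tell which sequence was measured in each fast gene and in its slow partner. Coordinates are those of the array file on build mm9, which gives no exon or untranslated region. Probes that span a gap in the genome cross an exon junction and are printed whole, and for the others bases 1 to 30 are given, all 5′ to 3′. In order they are the probes of Myl1 (A_51_P416858, chr1:66970948-66971007, minus strand), Tnnc2 (A_51_P353232, chr2:164602661-164602720, minus), Tnnc1 (A_51_P461894, chr14:32023360-32023776, plus), Mylpf (A_52_P383572, chr7:134356749-134356985, plus) and Myl2 (A_51_P392459, chr5:122553922-122554872, plus).
Myl1: ttataagccttgagttttcatgacaaacat
Tnnc2: acgggaaaggctgctcctttgggctctgtg
Tnnc1: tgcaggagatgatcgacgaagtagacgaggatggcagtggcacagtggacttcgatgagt
Mylpf: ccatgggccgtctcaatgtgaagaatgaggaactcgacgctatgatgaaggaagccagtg
Myl2: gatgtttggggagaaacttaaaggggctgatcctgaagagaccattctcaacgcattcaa
Probes of different members, that of Myot left out, shared at most 19 bases in a row, between Myh1 and Myh8. Of the 77 probes, 29 crossed an exon junction, Mylpf among them.

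The slow sarcomere group, some of whose genes are also used by the heart, had 1 of 6 members passing as lower. The slow troponins and the slow regulatory light chain lay closer to 0 in FD than their fast partners. Tnnc1, the troponin C of slow and cardiac muscle, lay at 0.03 and -0.22, and the log2 ratio of Tnnc2 minus that of Tnnc1 was -2.69 and -2.25 on arrays 1 and 2. Tnni1, slow troponin I, lay at -0.09 and 0.01, and Tnni2 differed from it by -2.15 and -2.22. Tnnt1, slow troponin T, gave -0.43 and 0.08 on the 2 arrays, and Tnnt3 differed from it by -0.52 and -0.83. Myl2, the slow and ventricular regulatory light chain, lay at -0.25 and -0.34, and Mylpf differed from it by -1.81 and -1.88. Myh7, the slow myosin heavy chain, lay at -0.32 and -0.17. It was bright in every pool, with mean levels of 10.85 in FD, 11.10 in its control pool, 11.04 in FR and 11.07 in the FR control pool. What its probe captures in brain RNA was not tested. Ratios of dim probes are pulled toward 0 by the offset added to the intensities. The slow partners Tnnc1, Tnni1 and Myl2 had levels of 6.34 to 6.94 in the control pool, near the floor of 5.64 that the offset sets, and the part of dimness in these differences was not tested.

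**Figure D2:**
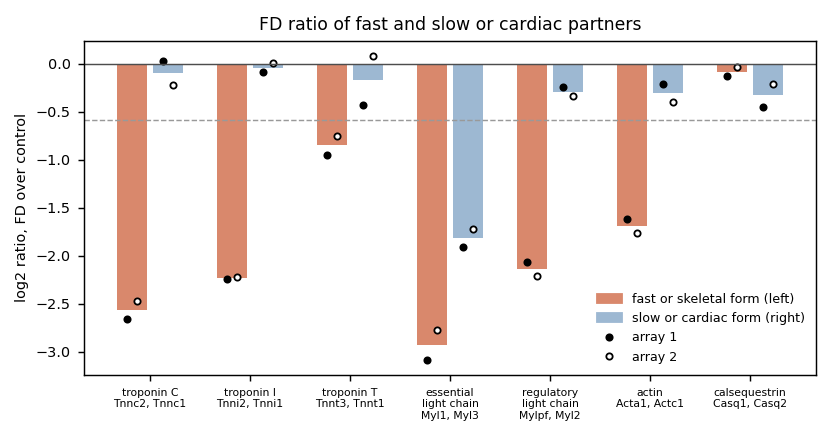
Log2 ratio of FD over control (y axis) for 7 pairs of related genes; bars are means of the 2 arrays, filled and open points are arrays 1 and 2, and the dashed line marks 1.5-fold lower. The fast or skeletal form (left bar) lies below its partner in 6 pairs, and the calsequestrin pair runs the other way, with Casq1 at -0.08 and Casq2 at -0.33.

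Myl3, the essential light chain of slow and ventricular muscle, was the slow gene that passed, and its 2 probes disagreed. Probe A_51_P177210 had a mean log2 channel level of 6.77 in the FD pool and 8.58 in the control pool, and gave -1.90 and -1.72, or 3.51-fold lower in FD. Probe A_51_P434910 had 7.55 in the FD pool and 7.51 in the control pool, and gave 0.09 and -0.01. On the FR arrays both probes lay near 0, at -0.04 and 0.04 for the first and at 0.13 and 0.02 for the second. The probes start 5307 bases apart on chromosome 9 (chr9:110671632-110671926, crossing an exon junction, and chr9:110666325-110666384, both on the plus strand), and are printed to show how they differ.
A_51_P177210: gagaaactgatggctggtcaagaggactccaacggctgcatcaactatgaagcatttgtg
A_51_P434910: ctgcacctgcagctgcacctgcggctgcac
The 30 bases shown of A_51_P434910 hold CTGCAC 3 times. It was the 1 probe of 41174 with at least 3 copies, and A_51_P177210 held 0. Myl3 passed on A_51_P177210 and with the mean of both probes (-0.89), and not on A_51_P434910, and what either probe captures was not tested.

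The other genes with several measured probes in FD gave closer values, with Myh4 as the exception. The second probe of Myh4 starts 1030 bases downstream and gave 0.15 and -0.15, so the mean of both probes, -0.44, did not pass. Tnnt3 passed on both probes (-1.20 and -0.95 on the second), as did Myh3 (-1.17 and -1.27 on the second, which shares 32 bases with the first). Both probes of Myh2 gave nearly the same mean, -0.57 and -0.59. They overlap by 18 bases, in capitals in the 30 bases shown of each (A_51_P225134, chr11:67010910-67010969, bases 31 to 60; A_52_P552036, chr11:67010952-67011011, bases 1 to 30; both on the plus strand).
A_51_P225134: cctttggtcatgCGCCTGTGTGATTCTATT
A_52_P552036: CGCCTGTGTGATTCTATTccatcctgttgt
Tpm2 (-0.27 and -0.44), Myl4 (-0.09 and -0.22) and Myh7 (-0.25 and -0.05) had both means below 0. Neb ranged from -0.34 to -0.07 over 3 probes and Ryr1 from -0.07 to 0.04 over 3.

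**Figure D3:**
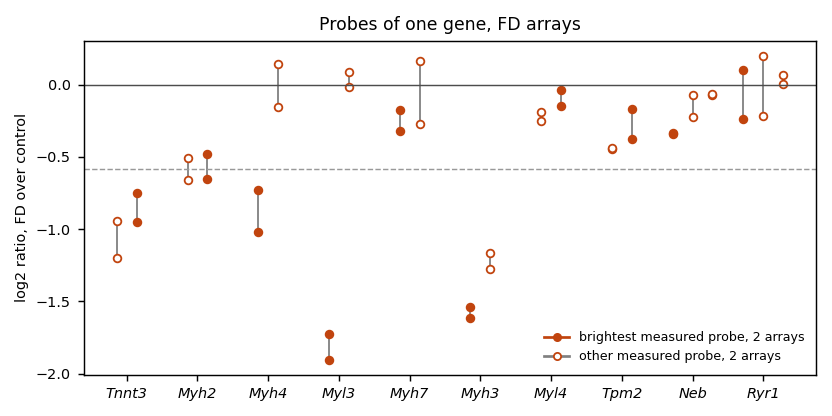
Log2 ratio of FD over control (y axis) for each measured probe of the 10 members with more than 1 measured probe; joined points are the 2 arrays of a probe, filled for the brightest probe, and the dashed line marks 1.5-fold lower. Probes of Myl3 and Myh4 lie apart, those of the other 8 genes close together.

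Of the embryonic group, 2 of 4 members passed as lower and all 4 were negative on both arrays. Myh3, the embryonic myosin heavy chain, had levels of 7.04 and 7.11 in the FD pool, against 8.58 and 8.72 in the control pool, and was 2.98-fold lower in FD (-1.54 and -1.61). Myh8, the perinatal heavy chain, had levels of 9.01 and 8.87 in the FD pool, against 10.43 and 10.37 in the control pool, and was 2.75-fold lower in FD (-1.43 and -1.50). For both genes the pools did not overlap. Myl4, the essential light chain of embryonic muscle and the atrium, lay at -0.04 and -0.15. Actc1, the cardiac actin that embryonic skeletal muscle also uses, lay at -0.20 and -0.39.

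Tnni2 and Tnnt3 lie on chromosome 7 with 1 protein-coding gene between them. The 5 skeletal heavy chain genes lie next to each other on chromosome 11, in the order Myh3, Myh2, Myh1, Myh4 and Myh8 with 0 protein-coding genes between neighbours in the reference table (GRCm38.p6, used for order only). Along that order the mean log2 ratios in FD were -1.58, -0.57, -0.42, -0.87 and -1.46. The genes at both ends, the embryonic and perinatal ones, were the lowest, and all 5 were negative on both arrays. In FR the same 5 lay at 0.15, -0.06, 0.02, -0.10 and -0.20. With the log ratio computed by the scanner software, the FD means in that order were -2.29, -0.94, -0.87, -1.53 and -1.58. There Myh4 and Myh8 lay close together, and the part of dim signal in the order was not tested. Heavy chain genes share long stretches of sequence, and capture of each other's RNA by their probes was not tested.

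Among sarcomere genes that fast and slow fibres share, 1 of 5 measured members passed as lower and all 5 were negative on both arrays. Acta1, the actin of skeletal thin filaments, had levels of 8.53 and 8.31 in the FD pool, against 10.15 and 10.08 in the control pool. It was 3.23-fold lower in FD (-1.62 and -1.77), and its ratio lay below that of Actc1 by a difference of -1.42 and -1.37. Tcap, which caps titin at the Z disc, had levels of 6.41 and 6.42 in the FD pool and of 6.91 and 7.05 in the control pool. At -0.49 and -0.64 it lay just outside the size rule, as did Myh2, while Myh4 at -0.73 and Tnnt3 at -0.75 on their weaker array lay just inside. Neb (nebulin, of the thin filament), Tpm2 (beta-tropomyosin) and Actn2 (a Z-disc actinin) had means between -0.34 and -0.25.

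Of 7 members of calcium handling and the membrane, Sln alone passed as lower. Sln encodes sarcolipin, a small membrane protein that restrains the muscle calcium pump. Its levels were 7.24 and 7.45 in the FD pool, against 9.20 and 9.23 in the control pool, and it was 3.65-fold lower in FD (-1.96 and -1.78). A second Sln probe, not well above background in either channel of either array, gave 0.00 and 0.01. The calcium release channel Ryr1 lay at -0.24 and 0.10, and the fast calcium pump Atp2a1 at -0.03 and -0.15. A second Atp2a1 probe gave -0.46 and -0.47. It was well above background in the control pool on both arrays and in the FD pool on neither. Cav3, the caveolin of muscle membranes, was at -0.58 and -0.42, and Casq2, a calcium-binding protein of the sarcoplasmic reticulum, at -0.45 and -0.20. Cacng1, a subunit of the muscle calcium channel, ran the other way at 0.38 and 0.37 without passing.

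Receptor, metabolic and myogenic genes gave 0 passing members among the 5 measured in FD. The acetylcholine receptor subunits Chrna1 and Chrnd, of the neuromuscular junction, had means of -0.04 and 0.02. Pygm, the glycogen phosphorylase of muscle, was at -0.11 and -0.17, and Eno3, the muscle enolase, at -0.34 and -0.01. Myod1 had levels of 6.68 and 6.67 in the FD pool and of 6.60 and 6.71 in the control pool. These overlapped, and its ratio was 0.08 and -0.04. Myf5 was not above background in any pool, and Myog was above it on some arrays only.

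In FD 5 members were well above background on both arrays in the control pool and on fewer in the FD pool. The share of all genes in this class is not given here, so the count describes these members only. Myot (myotilin of the Z disc) was not well above background in the FD pool on either array. Its mean log2 channel levels were 6.21 in the FD pool and 6.67 in the control pool (ratios of -0.49 and -0.44). By these levels it was 1.38-fold lower in FD. A floor at the dimmest signal that is well above background left the FD level unchanged at 6.21. The 1.38-fold is thus the observed difference, between a control signal well above background and an FD signal that was not. The part of dimness in it was not tested. The other 4 were well above background in the FD pool on 1 of 2 arrays. Ckm, the creatine kinase of muscle, had mean levels of 6.30 in the FD pool and 6.93 in the control pool, with ratios of -0.55 and -0.73. The ratios were -0.17 and -0.20 for Des (the muscle intermediate filament desmin) and -0.14 and -0.22 for Mb (the oxygen carrier myoglobin). For the giant protein gene Ttn, 2 of 8 probes were in this class, with 0.06 and -0.41, and -0.20 and -0.29. Chrng, the fetal receptor subunit next to Chrnd in the genome, was well above background on 2 arrays in the FD pool and on 1 in the control pool. Its mean levels were 6.17 in FD and 6.19 in the control pool (-0.02 and -0.02).

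The count depended on the processing. With an offset of 20 in place of 50, 14 of the 36 members passed as lower, and the share of all genes at that offset is not given. With the log ratio computed by the scanner software, which differs in background subtraction, offset and dye normalisation together, 18 members passed as lower, against 67 of 17964 genes. The 7 added were Myh1 (-0.87 there), Myh2 (-0.94), Myl2 (-0.72), Tcap (-1.34), Neb (-0.72), Casq2 (-1.20) and Cav3 (-1.83), and Cacng1 passed as higher in FD at 0.95. The same scale put Myl1 at -3.38, or 10.43-fold lower, and Tnnc2 at -2.84.

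After food restriction Cacng1 alone passed the size rule. Of 37 measured members 0 passed as lower and 1 as higher in FR, where 0.431% of 18560 measured genes passed as lower and 0.582% as higher. The median log2 ratio of the members was 0.02, against 0.01 for all measured genes. Both arrays were negative for 9 members and positive for 12 of 37, and for 5083 and 5256 of the 18560 genes. Cacng1 had levels of 7.65 and 7.40 in the FR pool, against 6.69 and 6.42 in its control pool, and was 1.96-fold higher in FR (0.96 and 0.98). The pools did not overlap. With background correction on all spots of the arrays, a bright patch included, its ratio was 0.50 and it did not pass. Its probe (A_51_P210286) lies on the minus strand at chr11:107565096-107565155, and bases 1 to 30 are shown because it is the single member higher in a treated pool.
Cacng1: tatgattgacagcgaggacacggtctggat

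The other members of FR ranged from -0.20 (Myh8) to 0.50 (Eno3, with 0.25 and 0.75 on the 2 arrays). The fast sarcomere group lay between -0.10 and 0.17 with a median of -0.03, and the embryonic group between -0.20 and 0.15. Slow Tnnt1 lay at 0.43 and 0.41 without passing, and its fast partner Tnnt3 at -0.09 and 0.03. Mb was well above background on 1 array in the FR pool and on 2 in the control pool (6.15 in FR, 6.17 in control, ratios of 0.15 and -0.20). Casq1, Chrng and Myog were so on 2 arrays in the FR pool and on 1 in the control pool. Their ratios were 0.04 and 0.03 for Casq1, -0.04 and 0.10 for Chrng, and 0.10 and -0.07 for Myog, the factor that drives muscle differentiation. For detection in 1 pool only, the share of all genes is not given.

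Set against each other, the log2 ratio to control was lower in FD than in FR for 11 of 35 members measured on all 4 arrays, and higher for 0. Over all 16759 such genes, 0.269% were lower and 0.0716% higher. Both differences between arrays of equal dye were negative for 31 of the 35 members and for 5049 of the 16759 genes. The largest were those of Myl1 (-3.09 and -2.79), Tnnc2 (-2.45 and -2.79), Tnni2 (-2.02 and -2.27) and Mylpf (-2.02 and -2.10). Sln (-2.00 and -1.95), Acta1 (-2.00 and -1.68), Myh3 (-1.93 and -1.53) and Myh8 (-1.22 and -1.31) followed. Tcap passed here at -0.69 and -0.67, beside Tnnt3 at -0.86 and -0.77 and Myh4 at -0.64 and -0.91. Eno3 (-0.58 and -0.76) and Cacng1 (-0.58 and -0.61) lay just outside. Myl3 gave -0.04 and -0.03, since its brightest probe on all 4 arrays is the one with the repeated hexamer.

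Channel levels showed which pool stood apart. The control pool of the FD arrays had the highest mean level for 24 of 35 members and for 3589 of 16759 genes. For 20 of the members, and 949 of the genes, both of its signals lay above every signal of the other 3 pools. Averaged over the 35 members, the log2 channel level was 7.39 in FD, 8.04 in its control pool, 7.54 in FR and 7.49 in the FR control pool. Single arrays gave 7.36 and 7.42 in FD, 8.02 and 8.05 in its control pool, 7.54 and 7.55 in FR, and 7.50 and 7.48 in the FR control pool. The means over all 16759 genes lay between 8.41 and 8.42 in every pool.

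Between the control pools, 9 members were at least 1.5-fold higher in the FD control pool than in the FR control pool in both dyes and 0 were lower, where 0.113% of genes were higher and 0.0955% lower. These 9 were Tnnt3, Tnnc2, Tnni2, Myl1, Mylpf, Myh3, Myh8, Acta1 and Sln. In all counts of levels Myl3 stands by probe A_51_P434910, not by A_51_P177210, on which it passed in FD. The latter had mean levels of 6.77 in FD, 8.58 in its control pool, 6.90 in FR and 6.90 in the FR control pool. The median difference over the 35 members was 0.33 log2 units, and 0.82 over the fast group. Between the FD and FR pools 0 members differed by that size, where 0.227% of genes were lower in FD and 0.167% higher. The median difference of FD minus FR was -0.14. Between the FD pool and the FR control pool 0 members differed either, with 0.119% of genes lower and 0.221% higher.

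Values of single genes show the order of the pools. Myl1 had levels of 7.68 and 7.85 in FD and 8.36 and 8.35 in FR, against 10.76 and 10.62 in the FD control pool and 8.35 and 8.33 in the FR control pool. For Tnnc2 the FR pool had 8.71 and 8.95 and the FR control pool 8.93 and 8.64, all below the 10.95 and 10.87 of the FD control pool. Acta1 had 8.77 and 8.56 in FR and 8.39 and 8.64 in its control pool, overlapping the 8.53 and 8.31 of FD. Sln had 7.79 and 7.69 in FR and 7.75 and 7.51 in its control pool, and Myh3 had 7.73 and 7.52 in FR and 7.34 and 7.60 in its control pool. The lowest of the 4 pools was FD for 17 of 35 members and 3420 of 16759 genes. It was FR for 8 members and 5178 genes. FD was lowest for Myl1, Tnnc2, Tnni2, Mylpf, Myh3, Myh8, Acta1 and Sln, and FR for Tnnt3. Myod1 was ordered otherwise, with 6.68 and 6.67 in FD, 7.04 and 7.05 in FR, 6.60 and 6.71 in the FD control pool and 6.95 and 7.07 in the FR control pool: there the FR arrays lay above the FD arrays in both channels. Ckm had mean levels of 6.30 in FD, 6.93 in its control pool, 6.33 in FR and 6.30 in the FR control pool.

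**Figure D4:**
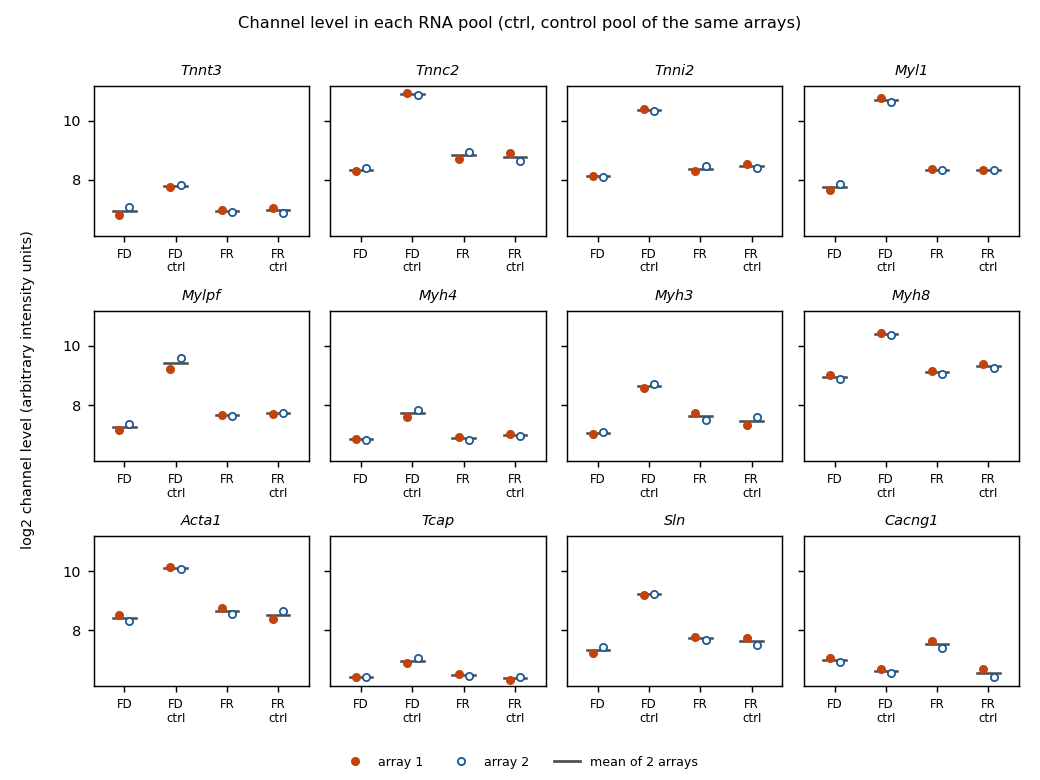
Log2 channel level (y axis, arbitrary intensity units after loess and scaling between arrays) in the 4 RNA pools for 12 members that passed in a comparison on the same probe; points are the 2 arrays and lines their mean. The control pool of FD is highest for 11 of the 12, and FR for Cacng1.

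Other muscle genes, a list of 69 made up of further sarcomere, membrane, metabolic and regulatory genes, were less far from 0. In FD 52 were measured, 2 passed as lower and 0 as higher, and the median was -0.08, with 26 negative and 5 positive on both arrays. Apobec2, a cytidine deaminase relative found in muscle, was at -0.99 and -0.84, with mean levels of 6.88 in FD, 7.80 in its control pool, 6.86 in FR and 6.82 in the FR control pool. Myom2, an M-band protein of the sarcomere, was at -0.75 and -0.78, with levels of 7.12 in FD, 7.89 in its control pool, 7.28 in FR and 7.33 in the FR control pool. Both had the FD control pool on top. Next were Pgam2 (muscle phosphoglycerate mutase, -0.79 and -0.55), Myoz1 (a Z-disc protein, -0.51 and -0.60), Cox7a1 (a muscle form of a cytochrome oxidase subunit, -0.50 and -0.50), Csrp3 (-0.48 and -0.43), Cox6a2 (-0.51 and -0.32) and Hrc (-0.28 and -0.42), none of which passed. The mean level of 51 genes of the list was 7.46 in FD, 7.60 in its control pool, 7.46 in FR and 7.49 in the FR control pool.

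In FR 54 of the other muscle genes were measured, 0 passed, and the median was -0.02. The means farthest from 0 were those of Cox7a1 (-0.59), the ubiquitin ligase Fbxo32 (0.52), the myosin chaperone Unc45b (0.51), the synapse adaptor Dok7 (-0.51), the muscle cadherin Cdh15 (-0.47), Srl (-0.43), Cacnb1 (-0.25) and Lmod3 (0.22). In FD against FR, Apobec2 (-0.93 and -0.98) and Myom2 (-0.62 and -0.81) passed as lower among 51. Of the other 6 means farthest from 0, Myoz1 (-0.62), Pgam2 (-0.57), Lmod3 (-0.40) and Csrp3 (-0.39) were negative. Hspb3 (0.51) and Cdh15 (0.41) were positive.

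Markers of other tissues moved with the muscle genes in part. Of 7 measured brown fat markers, 3 passed as lower in FD: Fabp4 (a fatty acid carrier of fat cells, -3.22 and -2.95), Ucp1 (which lets brown fat make heat, -1.62 and -1.44) and Car3 (mean -0.98). The other 4 did not pass: Cidea lay at -0.95 and -0.50, Lpl at 0.31 and 0.01, and Plin1 and Pparg had means of -0.10 and -0.01. Adipoq and Cfd were not measured. The mean level of the 7 was 7.64 and 7.79 in FD, 8.57 and 8.65 in its control pool, 7.68 and 7.57 in FR, and 7.77 and 7.67 in the FR control pool, so the FD control pool was highest here too. Of 7 bone markers 2 passed as lower, Spp1 (osteopontin, mean -0.97) and the collagen gene Col1a1 (-0.90 and -0.75), with Bglap at -0.49. Their mean level was 8.06 and 8.17 in FD, 8.47 and 8.54 in its control pool, 8.31 and 8.24 in FR, and 8.11 and 7.99 in the FR control pool. Dmp1 was not measured, and Col1a2 not in FD. The part of brown fat and bone RNA in the muscle result was not tested.

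Lists of heart, smooth muscle, cartilage and skin had 0 members passing in FD. The 8 cardiac markers had a median of 0.03 and mean levels of 6.82 and 6.81 in FD, 6.78 and 6.77 in its control pool, 6.87 and 6.82 in FR, and 6.83 and 6.75 in the FR control pool. Tnni3, Myl7 and Nkx2-5 were at 0.24, 0.11 and 0.08. Smooth muscle had a median of -0.01 over 6 (Cnn1 at 0.25, Smtn at -0.10, Tagln at -0.04), with levels from 7.45 to 7.57 over all pools and arrays. Cartilage had a median of -0.06 over 7 (Comp at -0.22, Col2a1 at -0.16, Hapln1 at -0.08) and levels from 7.73 to 8.08. Skin had -0.01 over 6 (Lor and Krt15 at -0.12, Krt14 at 0.11) and levels from 7.86 to 8.07. Neuron markers had a median of -0.14 over 6 (Syt1 at -0.33, Nefl at -0.25, Dcx at -0.16), and neural progenitor markers of -0.10 over 5 (Nes at -0.24, Eomes at -0.23, Slc1a3 at 0.20).

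In FR, Col2a1, the main collagen of cartilage, passed as higher (0.60 and 0.65) and Cidea, a lipid droplet protein of brown fat, as lower (-0.67 and -0.69). None of the other measured markers passed there. Bone markers had a median of 0.13 (Ibsp at 0.60, Col1a1 at 0.50, Col1a2 at 0.35) and cardiac markers of 0.06 (Tnni3 at 0.47, Tnnt2 at 0.13, Myh6 at -0.13). Comp (0.37) and Acan (0.21) of cartilage, Lpl (-0.18) and Car3 (0.14) of brown fat, Cnn1 (0.17), Acta2 and Actg2 (both -0.10) of smooth muscle and Lor (-0.28), Krt10 (-0.21) and Krt15 (0.20) of skin lay closer to 0 than 1.5-fold. So did Syt1 (-0.35), Dcx (0.18) and Stmn2 (-0.12) of neurons and Hes5 (-0.44), Fabp7 (-0.29) and Slc1a3 (0.23) of progenitors.

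**Figure D5:**
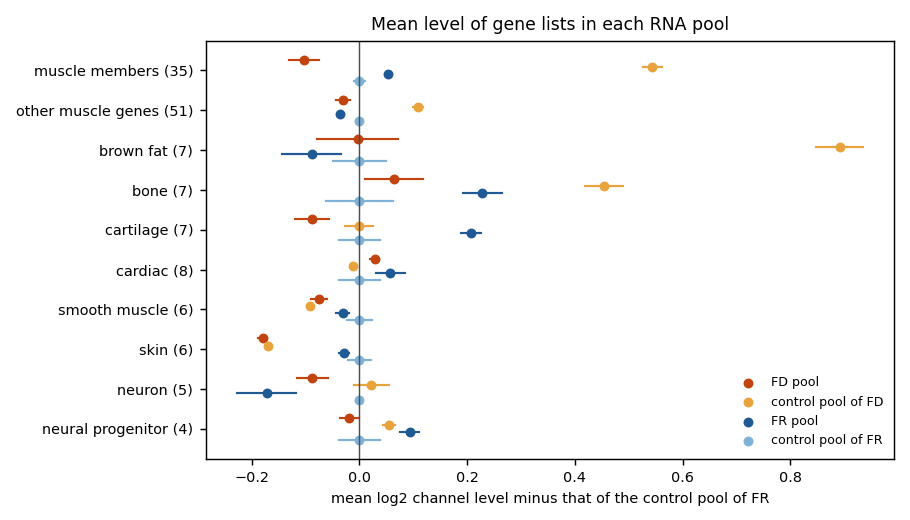
Mean log2 channel level of each gene list minus that of the FR control pool (x axis) in the 4 RNA pools (colours); points are means of the 2 arrays, lines span the 2 arrays, and the number of genes stands in brackets. The FD control pool lies to the right for muscle members (8.04 against 7.49) and brown fat (8.61 against 7.72).

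The promoters of the members were searched for motifs of muscle regulation, as letters only. RefSeq windows of 300 bases on GRCm38.p6, 250 before and 50 after the annotated start, were given for 34 of the 44 genes (39 windows) and for 32851 starts in all, and both strands were read. The E-box CANNTG, bound by Myod1 and its relatives, stood in 87.2% of member windows and 72.3% of all windows. Its form CAGCTG, which is contained in the E-box search, stood in 51.3% of member windows and 16.3% of all. The CArG box, bound by serum response factor and known from actin promoters, stood in 10.3% of member windows and 1.63% of all, and the MEF2 motif in 2.56% and 0.557%. Of the 8 genes that passed as lower in FD and have a window, 4 held CAGCTG (Myl1, Mylpf, Acta1 and Myh4) and 3 a CArG box (Acta1, Myl3 and Myh4). Over all 34 member genes with a window, passing or not, 17 held CAGCTG and 4 a CArG box. Of the members that did not pass, Actc1 held a CArG box and Chrna1, Chrng and Pygm each held CAGCTG at 2 places.

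The 250 bases before the start are shown for Acta1 (chr8:123894776-123895025, minus strand) and Myh4 (chr11:67237562-67237811, plus strand), which hold both motifs, and for Mylpf (chr7:127211358-127211607, plus strand), which holds CAGCTG alone. All are RefSeq sequence on GRCm38.p6, 5′ to 3′, with CAGCTG and the CArG box in capitals.
Acta1: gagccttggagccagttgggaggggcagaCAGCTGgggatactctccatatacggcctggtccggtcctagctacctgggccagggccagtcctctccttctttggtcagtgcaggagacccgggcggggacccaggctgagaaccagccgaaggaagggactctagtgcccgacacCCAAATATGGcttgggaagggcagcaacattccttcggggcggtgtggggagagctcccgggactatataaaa
Myh4: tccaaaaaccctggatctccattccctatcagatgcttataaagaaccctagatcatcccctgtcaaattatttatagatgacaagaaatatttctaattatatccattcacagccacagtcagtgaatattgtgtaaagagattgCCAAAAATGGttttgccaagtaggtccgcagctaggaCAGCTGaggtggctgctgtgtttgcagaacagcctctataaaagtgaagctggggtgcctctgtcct
Mylpf: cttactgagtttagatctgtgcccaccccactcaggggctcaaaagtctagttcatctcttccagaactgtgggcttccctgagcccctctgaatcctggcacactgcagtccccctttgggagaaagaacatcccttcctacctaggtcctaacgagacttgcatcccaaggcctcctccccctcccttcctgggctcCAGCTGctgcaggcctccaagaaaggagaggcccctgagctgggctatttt
CAGCTG begins 221 bases before the start in Acta1, 67 in Myh4 and 51 in Mylpf, and the CArG box 73 before it in Acta1 and 104 in Myh4. These are matches of letters, and no binding was measured.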

How the data were processed

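RNA of fetal brain was measured on 4 two-channel Agilent arrays (FD and FR, 2 arrays each with dyes exchanged). The deposited scanner files come from Agilent Feature Extraction 9.5.3.1. Per the file headers they give, for every spot, a mean intensity and a median background intensity in red and green. Per the file headers there is also a log10 ratio (red to green, background-subtracted and dye-normalised) and other columns with flags of 0 or 1. A deposited table holds log2 ratios by the authors: on spots well above background it matched the scanner ratio at r = 1, -1, 1 and -1, with column medians of -0.03, 0.03, -0.03 and 0.01. How it was centred on dim spots is not given in the sources used here.

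Intensities were corrected with normexp (offset 50) and loess within arrays in limma 3.58.1 (R 4.3.3), and channel levels were scaled between arrays with Aquantile. Control spots had weight 0, and outlier-flagged spots were left out. Spots with local background over 2 times the array median (3, 0, 0 and 44 per array) were left out before normexp. Spots of a probe were averaged, and swapped arrays turned to log2(treated/control). For FD against FR, ratios of arrays with equal dye were subtracted. Members, gene lists and rules were chosen with earlier results of these data known. The arrays lie on 1 slide and come from 1 scan. Their number limits the precision, and no p-value was computed.

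All members are described: those passing the size rule or detected on both arrays of 1 pool only with array values, up to 8 other muscle genes per comparison and up to 3 genes per marker list. The size rule was tried on simulated FD ratios with known folds. Normalisation, channel levels and the background filter were not simulated. Alternatives were other background corrections, normalizations, filters, probe rules and single arrays. One sequence on chromosome 18 is not shown.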

Additional observations from a re-analysis of the deposited data

Results flagged for a closer look

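For 7 members both arrays of FD lay below 0 and both arrays of FR above 0, and the difference was not tested in any of them. Myl1, the fast essential light chain, differed by -2.94 log2 units in FD minus FR (-3.08 and -2.77 in FD, 0.01 and 0.02 in FR). Sln, the regulator of the calcium pump, differed by -1.98 (-1.96 and -1.78 in FD, 0.05 and 0.17 in FR). The Z-disc gene Tcap differed by -0.68 (-0.49 and -0.64 in FD, 0.20 and 0.03 in FR), and the enolase Eno3 by -0.67 (-0.34 and -0.01 in FD, 0.25 and 0.75 in FR). Actc1 differed by -0.32 (-0.20 and -0.39 in FD, 0.01 and 0.04 in FR), Myl4 by -0.17 (-0.04 and -0.15 in FD, 0.04 and 0.11 in FR) and the receptor subunit Chrna1 by -0.11 (-0.06 and -0.02 in FD, 0.07 and 0.06 in FR). In each of the 7 at least 1 array value was closer to 0 than the technical SD of a dye-swap mean (0.127 in FD, 0.131 in FR), so that its sign is not settled.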

How the results depend on the processing

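No paired analysis was possible because each result comes from 1 pool per condition and from no test. The log ratio of the scanner software and the deposited value table gave the same values: in FD 18 members lower, 1 higher and a median of -0.72, in FR 2 higher (Cacng1 and Tnnt1) and a median of 0.03 (0.0318), and 17 lower in FD against FR. An offset of 20 moved the FD median to -0.38. With normexp on all spots 0 members were higher in FR and the FR median was 0.00797. Median centring moved that median to 0.00652, and a 2-fold rule left 0 higher in FR. Single arrays gave 11 to 13 lower members in FD, medians of -0.37 to -0.28 in FD, 1 to 2 higher members in FR (Eno3 on array 2), FR medians of 0.0104 to 0.0212 and 13 to 13 lower in FD against FR. All other member counts stayed within 1.5 times. Counts over all genes are not given for the offset of 20, for single arrays or for FD against FR by the scanner ratio. The level difference of the control pools, FD control minus FR control, was 0.31 without scaling, 0.32 with quantile normalization, 0.49 with processed signals, 0.30 with normexp on all spots, 0.30 with 1 channel above background and 0.29 to 0.31 in single dye orientations. The difference of FD minus FR was -0.11, -0.12, -0.30, -0.13, -0.10 and -0.16 to -0.16 in the same order. No result was reversed. Over all genes, 23 lower and 16 higher in FD became 67 and 74 with the scanner ratio and 19 and 2 with median centring. In FR 80 lower and 108 higher became 287 and 319, 6 and 32, and 4 and 9 with normexp on all spots. Of named members, Myh4 did not pass with the mean of its probes (-0.44 in FD, -0.40 in FD against FR) or, in FD against FR, with median centring (-0.83), Tcap did not in FD against FR with median centring (-0.74), and Cacng1 did not in FR with normexp on all spots (0.50). Dim probes limit the fold that can be read, since the offset of 50 sets a floor near a log2 level of 5.64.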
